A study of Mus musculus with 8 samples.

Results

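The cortical neuropeptides described here are 10 genes for peptide precursors: Npy, Sst, Vip, Cck, Penk, Pdyn, Tac1, Tac2, Cort and Pnoc. They were chosen by name, and every array probe annotated with 1 of these symbols was taken, 15 of 45281 probes on the array. The samples were 8 RNA extracts from 1 mm punches of the medial prefrontal cortex of both hemispheres of male mice aged 10 weeks, each hybridized to 1 Illumina bead array. The stressed group (IMO, 4 arrays, replicates 1 to 4) came from mice immobilized once for 2 h, and their cortex was taken at rest 6 days afterwards. Mice of the unstressed group (No stress, 4 arrays, replicates 5 to 8) were not immobilized. Nothing in the labels ties each array to an animal of its own, so p-values reflect only the spread among these samples, which may be technical.

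Neuropeptides are made as long precursor proteins, cut into short active peptides, packed in dense-core vesicles and released during strong firing, after which they act on G-protein-coupled receptors. In the cerebral cortex most of them mark classes of GABAergic interneurons. Sst and Npy are made mainly by dendrite-targeting and neurogliaform cells, Vip by cells that inhibit other interneurons, and Cort by a part of the Sst and parvalbumin cells. Cck is made by basket interneurons and also by many pyramidal cells. Penk, Pdyn and Tac1 are very abundant in the projection neurons of the striatum. A punch that reaches below the cortex can therefore carry much more of some peptides than of others.

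Sequence upstream of the gene start is shown for the members in which the same pair of punches stood on 1 side of the other 6, as described further down. These are 250 bases upstream from RefSeq (GRCm38.p6), 5′ to 3′ along the gene, and capitals mark TGACG on either strand (CGTCA on the other strand), the core of the cAMP response element. Of the 10 genes, 8 had a promoter entry, and Penk and Pnoc had none.
Sst chr16:23890845-23891094 (minus strand): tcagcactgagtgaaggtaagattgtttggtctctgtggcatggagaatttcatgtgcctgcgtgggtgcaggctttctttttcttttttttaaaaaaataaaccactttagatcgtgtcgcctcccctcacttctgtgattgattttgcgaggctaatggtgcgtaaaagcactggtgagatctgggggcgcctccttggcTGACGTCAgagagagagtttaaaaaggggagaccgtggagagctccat
Vip chr10:5638968-5639217 (plus strand): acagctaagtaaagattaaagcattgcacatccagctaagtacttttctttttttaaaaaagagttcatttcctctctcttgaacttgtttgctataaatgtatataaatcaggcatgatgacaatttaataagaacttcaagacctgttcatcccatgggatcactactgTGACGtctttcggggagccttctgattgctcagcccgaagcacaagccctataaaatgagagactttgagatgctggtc
Cck chr9:121495695-121495944 (minus strand): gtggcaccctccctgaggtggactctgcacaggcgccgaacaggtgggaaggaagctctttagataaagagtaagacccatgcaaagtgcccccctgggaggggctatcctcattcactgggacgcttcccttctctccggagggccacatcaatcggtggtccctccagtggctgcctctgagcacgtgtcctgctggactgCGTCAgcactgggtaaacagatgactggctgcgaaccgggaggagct
Tac1 chr6:7554811-7555060 (plus strand): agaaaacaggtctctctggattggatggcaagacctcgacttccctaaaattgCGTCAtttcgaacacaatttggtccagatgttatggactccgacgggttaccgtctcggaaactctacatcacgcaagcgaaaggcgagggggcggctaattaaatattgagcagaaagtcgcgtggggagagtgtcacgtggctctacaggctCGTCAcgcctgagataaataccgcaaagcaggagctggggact
The Sst window holds the whole palindrome TGACGTCA, in which the forward and reverse 5-base matches overlap, starting 48 bases before the gene start. It was the only one of the 9 windows of these 8 genes with the palindrome, which 1.55% of all 32851 windows of this length hold. The 5-base core occurred in 5 of the 9 windows (Sst, Vip, Cck, Tac1 and Cort), against 17.8% of all windows. A match describes these letters and is not evidence of a bound factor.

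Of the 15 probes, 12 reached detection (p under 0.05) on 4 or more of the 8 arrays and were tested, covering 9 of the 10 genes. All 12 except a dimmer Tac2 probe were detected on 8 of 8 arrays. Pnoc, the precursor of nociceptin, has 1 probe, which was not above background on any array, at log2 signals of 5.55 to 5.77 in IMO and 5.56 to 5.95 in No stress arrays, where detection began at about 6.11. Its level is therefore bounded by background and no fold is given. A dimmer probe of Vip and another of Tac1 were also detected on 0 of 8 arrays. Signals are log2 of the deposited intensity, and because probes differ in how well they bind, no peptide's level is ranked against another's. The brightest member signal was 12.85, below the highest signal on the arrays of 14.64.

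There are 2 tables of deposited values under the same sample names, and the sources used here do not settle which of them holds the labelled arrays. Values below come from the value table, whose order matches the deposited detection p-values, and replicate numbers refer to it unless the other table is named. Arrays correlated at r = 0.986 to 0.994 within and 0.985 to 0.992 between groups across all probes, and no pair was identical. IMO replicate 1 and No stress replicate 6 stood apart from the other 6 arrays. Zic1, a transcription factor of septum and other regions beneath the cortex, had log2 signals of 11.86 in IMO replicate 1 and 11.63 in No stress replicate 6, against 8.81 to 9.70 elsewhere, while Cux2, a gene of upper cortical layers, read 7.85 and 8.04 against 9.15 to 9.80. In the value table each group thus holds 1 of these punches, and results are given with and without them. In the other table high Zic1 was found in No stress replicates 5 and 6, at 11.70 and 10.99, against 8.56 to 10.13 in the other arrays. By Zic1 both lie in 1 group there, and IMO replicate 1 does not stand apart at 9.22. Cux2 was lowest (8.47 and 7.71) and Ppp1r1b, a striatal gene, highest (9.83 and 10.79) in the same 2 arrays. Prkcd, a listed striatal and septal marker, was high there (9.81 and 8.58) but also in IMO replicate 3 (9.42), against 7.29 to 7.72 elsewhere. Which arrays stand apart in that table therefore depends on the marker. Of 7 tested excitatory cortical markers, Slc17a7, the vesicular glutamate transporter, was bright in all 8 arrays. It read 12.71 to 13.07 in IMO and 12.28 to 13.03 in No stress arrays. Neurod6 and Emx1 were near background, at 5.97 to 6.51 and 6.40 to 6.74, and the remaining tested markers read from 9.42 (Tbr1) upward.

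No peptide precursor passed the test of a difference between IMO and No stress mice. By limma 0 of the 12 tested probes had a Benjamini-Hochberg adjusted p under 0.05, as did 0% of all 20531 probes, and the members' adjusted p ran from 0.71 to 0.994. At an unadjusted p under 0.05 the count was also 0 of 12, against 10.6% of all probes tested. In 0 of the 12 probes were the groups free of overlap, against 6.92% of all probes. Of the 12, 6 had higher and 6 lower mean signal in IMO arrays, and the median log2 difference was -0.00264, against 0.000916 over all probes. Two-sided exact permutation p-values over the arrays ran from 0.371 to 0.971, where 4 against 4 arrays can reach 0.0286. In bulk tissue, fewer cells of a type and less RNA per cell cannot be told apart, so these levels describe the punch and not the cell.

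**Figure D1:**
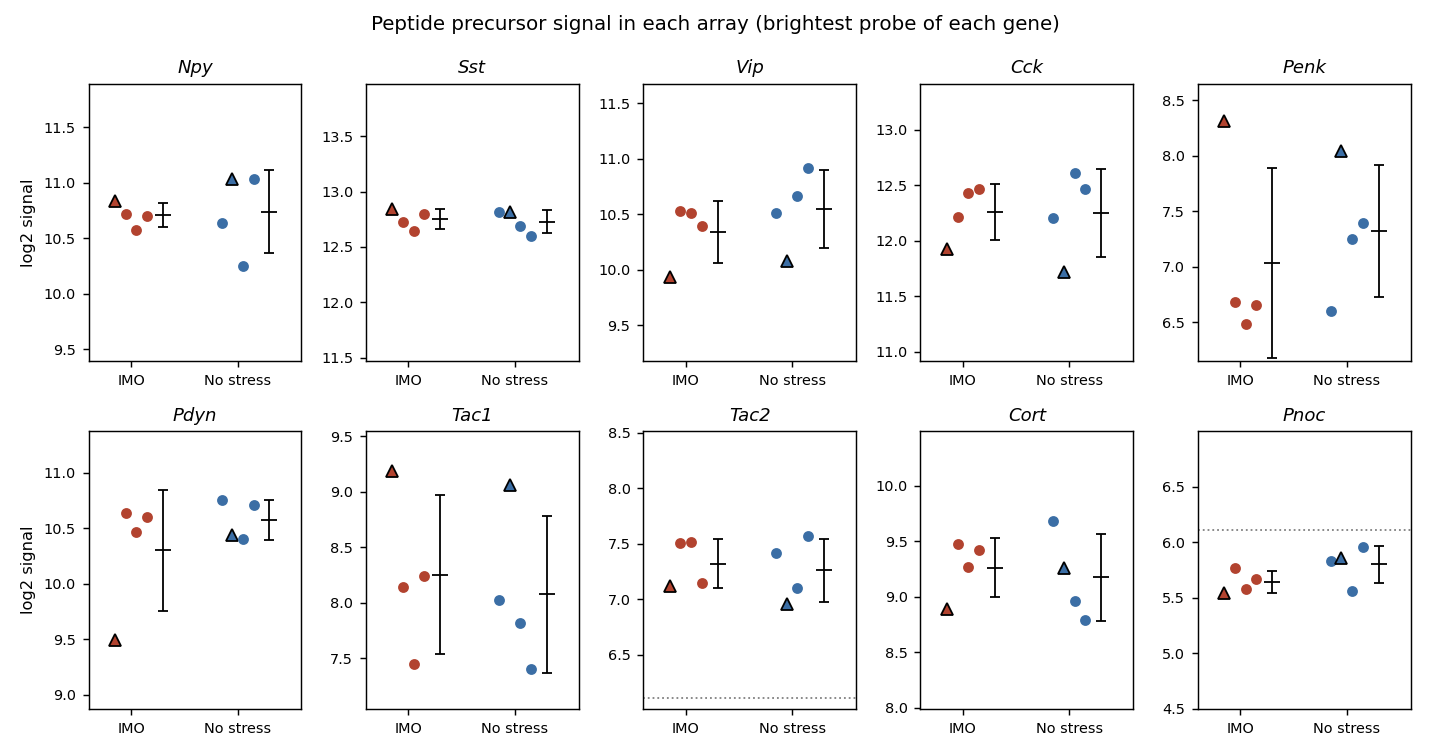
Log2 signal (vertical axis, 2.5 units high in each panel) of the brightest probe of each precursor in every array, IMO (red, left) and No stress (blue, right); triangles are IMO replicate 1 and No stress replicate 6, bars are mean ± SD of 4 arrays, and the dotted line is the detection level of about 6.11. The groups overlap in each panel, Sst lies in a narrow band from 12.60 to 12.85, and the triangles are the highest points for Penk and Tac1 and the lowest for Vip and Cck.

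Sst encodes somatostatin, the peptide of dendrite-targeting interneurons. Its signal (probe ILMN_2729826) was 12.85, 12.73, 12.64 and 12.79 in IMO arrays 1 to 4, against 12.81, 12.82, 12.69 and 12.60 in No stress arrays 5 to 8. All 8 values lay within 0.25 log2 units, a 1.19-fold span from lowest to highest. The log2 difference was 0.02 with a 95% confidence interval of -0.17 to 0.22 (adjusted p 0.952 by limma), the narrowest interval among the members. Its SD between arrays of the same group, 0.0966, was larger than that of only 14.2% of all probes tested, and the other 11 probes all had a within-group SD above the median of 0.153. In the other deposited table Sst spanned 12.65 to 13.21, so its narrow band holds in the value table alone.

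Cort encodes cortistatin, a relative of somatostatin that binds the same receptors. Its brighter probe (ILMN_1226607) read 8.89, 9.47, 9.27 and 9.42 in IMO arrays, against 9.68, 9.26, 8.96 and 8.79 in No stress arrays, and the groups overlapped widely. The difference was 0.09 ± 0.191 (standard error), and 0.03 ± 0.197 at the other probe (ILMN_2955725). Both probes were lowest in IMO replicate 1 within that group, and the No stress arrays 7 and 8 lay below the other 2 No stress arrays at both probes. Without IMO replicate 1 and No stress replicate 6 the differences were 0.24 and 0.23 (limma adjusted p 0.68 and 0.642), with wide error. With single arrays left out, the difference ran from -0.04 to 0.26 at the brighter and from -0.07 to 0.21 at the other probe. Its sign therefore depended on the arrays used. Cort had a within-group SD of 0.334 and 0.345 at its probes, against 0.0966 for Sst.

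Npy encodes neuropeptide Y, which dampens transmitter release and is widely studied in stress resilience. Its signal (ILMN_2946520) was 10.84, 10.72, 10.57 and 10.70 in IMO arrays, against 10.64, 11.04, 10.25 and 11.04 in No stress arrays. The IMO values lay inside the No stress range, and the SD was 0.109 in IMO and 0.376 in No stress arrays (n = 4 each), a difference in spread that was not tested. The log2 difference was -0.03, with a 95% confidence interval of -0.39 to 0.33. It turned positive without the 2 punches that stand apart, at 0.02 with an interval of -0.37 to 0.41, and in the other deposited table, at 0.12. In that table IMO values ran from 10.60 to 11.11 and No stress values from 10.34 to 11.09. The IMO values thus lay inside the No stress range in the value table alone.

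Vip encodes vasoactive intestinal peptide, made by interneurons that inhibit other interneurons. Its detected probe (ILMN_2943387) read 9.94, 10.53, 10.52 and 10.39 in IMO arrays, against 10.51, 10.08, 10.66 and 10.92 in No stress arrays. The lowest value of each group came from the punch with high Zic1. The difference was -0.20 with an interval of -0.61 to 0.20, and -0.22 without both punches (adjusted p 0.515), where the highest IMO array at 10.53 and the lowest No stress array at 10.51 were nearly level. In the other deposited table it was 0.09.

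Cck encodes cholecystokinin, shared by basket interneurons and pyramidal cells. Its signal (ILMN_1252990) was 11.93, 12.21, 12.43 and 12.47 in IMO arrays, against 12.21, 11.72, 12.62 and 12.47 in No stress arrays. As for Vip, the same pair of punches gave the lowest value of each group. The log2 difference was 0.01 (interval -0.41 to 0.43), and it was -0.06 without both punches.

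Penk encodes proenkephalin, the source of Met- and Leu-enkephalin and a marker of striatal indirect-pathway neurons. Its signal (ILMN_2719921) was 8.31, 6.68, 6.48 and 6.65 in IMO arrays, against 6.60, 8.04, 7.25 and 7.39 in No stress arrays. The pair of high values came from IMO replicate 1 and No stress replicate 6, and among the remaining arrays No stress replicates 7 and 8 lay above all 3 IMO arrays while No stress replicate 5 did not. The difference over all 8 arrays was -0.29 with an interval of -1.17 to 0.59 (adjusted p 0.852). Without both punches Penk averaged 6.60 ± 0.107 in IMO and 7.08 ± 0.42 in No stress arrays (SD, n = 3 each), a log2 difference of -0.48 with an interval of -0.89 to -0.06. That was the only member probe of 12 with an unadjusted limma p under 0.05 in this setting (0.0281, adjusted p 0.394), against 11.5% of all probes tested, and the groups still overlapped. At 0 of the 12 member probes were the groups of 3 free of overlap, against 18.3% of all probes. Leaving out IMO replicate 1 alone gave -0.72 (adjusted p 0.346) and leaving out No stress replicate 6 alone gave -0.05. The Penk signals of the other 6 arrays, 6.48 to 7.39, were not far above the detection level of about 6.11, where differences are compressed. In the other deposited table the Penk difference was -0.52 (limma adjusted p 0.981). Penk was highest there in No stress replicates 5 and 6, at 7.97 and 8.44, the arrays with high Zic1 in that table. The part of these arrays in that difference was not tested.

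Pdyn encodes prodynorphin, whose peptides act on kappa opioid receptors. Its brighter probe (ILMN_2783873) read 9.49, 10.64, 10.47 and 10.60 in IMO arrays, against 10.75, 10.44, 10.40 and 10.71 in No stress arrays. IMO replicate 1 stood alone below the rest, and the other 7 arrays lay between 10.40 and 10.75. The difference was -0.28 with an interval of -0.78 to 0.22, and -0.17 (interval -0.48 to 0.14) at the dimmer probe, which was also lowest in IMO replicate 1. Without that array the differences were -0.01 and -0.03. In the other deposited table IMO replicate 1 was instead the highest of all 8 arrays at both probes (10.71 and 8.02), and the difference had the opposite sign, at 0.28 and 0.31, with an unadjusted limma p of 0.0385 at the dimmer probe and an adjusted p of 0.981.

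Tac1 encodes the precursor of substance P and neurokinin A, abundant in striatal direct-pathway neurons. Its detected probe (ILMN_1251000) read 9.18, 8.14, 7.45 and 8.24 in IMO arrays, against 8.02, 9.06, 7.82 and 7.40 in No stress arrays. The highest value of each group again came from IMO replicate 1 and No stress replicate 6. The difference was 0.18 with an interval of -0.67 to 1.03, and 0.20 without both punches. In the other deposited table it was -0.45. Tac1 was highest there in No stress replicates 5 and 6, at 8.85 and 8.49, the arrays with high Zic1 in that table. The part of these arrays in that difference was not tested. Tac2, which encodes neurokinin B, read 7.12, 7.51, 7.52 and 7.15 in IMO arrays, against 7.42, 6.96, 7.10 and 7.57 in No stress arrays at its brighter probe (ILMN_2771036). Its groups overlapped, with a difference of 0.06 (interval -0.28 to 0.39), and of -0.01 at the dimmer probe (0.03 in the other deposited table), which was detected on 3 IMO and 4 No stress arrays.

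**Figure D2:**
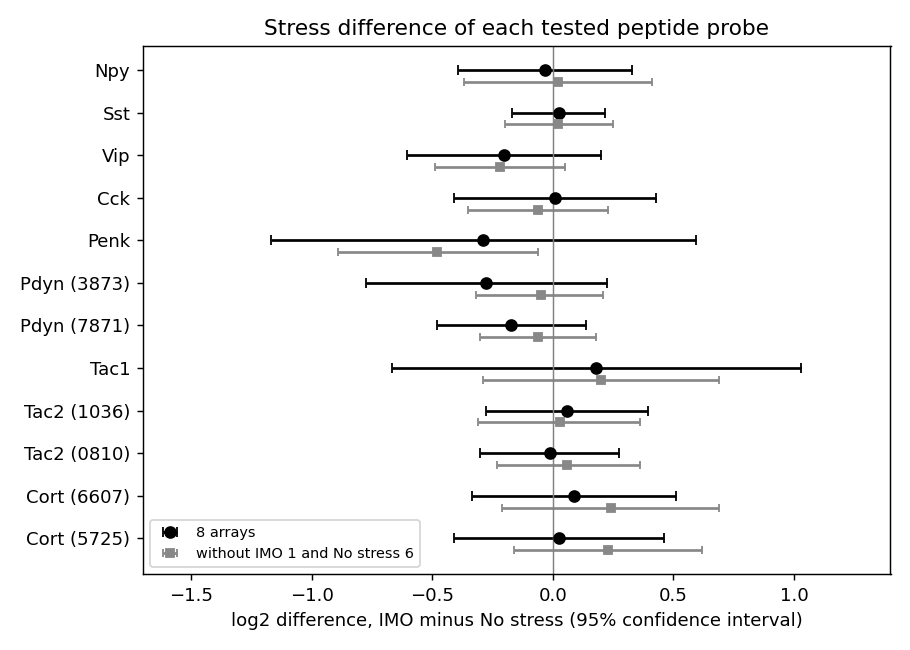
Log2 difference (horizontal axis, IMO minus No stress) of the 12 tested probes with its 95% confidence interval from limma, over 8 arrays (black circles) and without IMO replicate 1 and No stress replicate 6 (grey squares); numbers in brackets are the last digits of the probe name where a gene has 2 tested probes. Every 8-array interval spans 0, the widest are those of Penk and Tac1, and only the grey Penk interval, -0.89 to -0.06, leaves 0 out.

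The SD between arrays of the same group was larger than the size of the IMO minus No stress difference at 12 of 12 tested member probes, as it was at 69.7% of all probes tested. In the other deposited table this held for 11 of 12 member probes and 81.5% of all probes, the dimmer Pdyn probe being the exception. Penk and Tac1 had within-group SDs of 0.738 and 0.708, larger than those of 99.5% and 99.4% of all probes tested. Their SDs in the other deposited table were 0.527 and 0.507. In the value table their lowest and highest arrays differed 3.56-fold and 3.43-fold. The brighter Pdyn probe followed at an SD of 0.404 (96.5%), then Cort, Cck at 0.330 (93.3%), Vip at 0.316 (92.3%) and Npy at 0.277 (88.6%). The Tac2 probes were at 0.252 and 0.205.

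**Figure D3:**
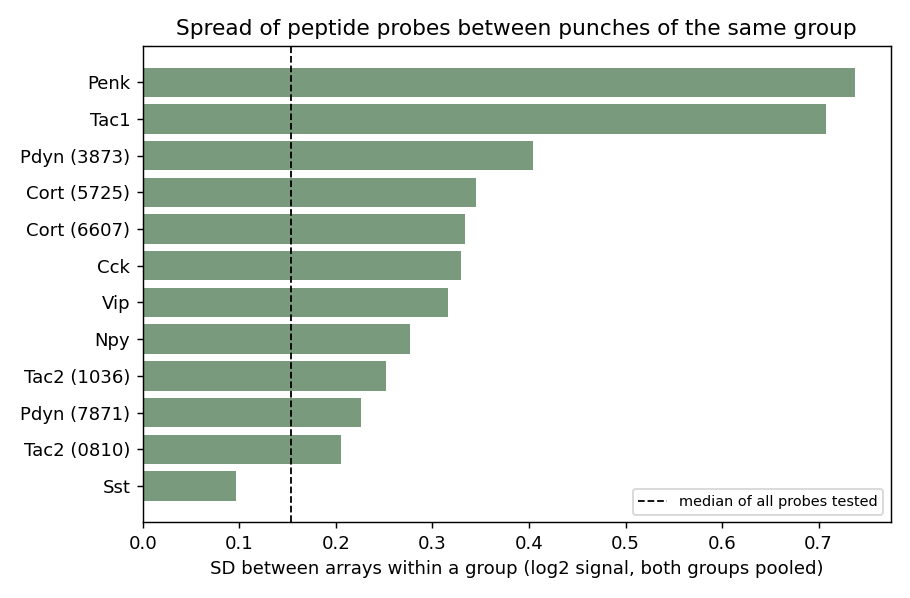
SD of log2 signal between arrays of the same group (horizontal axis, value table, pooled over IMO and No stress) for each tested peptide probe, with a dashed line at the median of all probes tested, 0.153. Penk and Tac1 have the longest bars, 0.738 and 0.708, and Sst, at 0.0966, is the only bar that ends before the line.

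In the value table the 2 punches that stand apart differed from the rest in a direction that depended on the peptide. Penk was 2.77-fold and 2.30-fold above the mean of the other 6 arrays in IMO replicate 1 and No stress replicate 6, and Tac1 was 2.53-fold and 2.32-fold above it. Vip lay at 0.636 and 0.704 of that mean, and Cck at 0.720 and 0.622. Sst was above the other 6 arrays in both punches, but by only 1.10-fold and 1.08-fold over their mean, and the highest of the 6, at 12.81, nearly reached the lower of the pair, at 12.82. In all, 3 of 12 tested probes (Penk, Tac1 and Sst) had both punches above the other 6 arrays, as did 7.57% of all probes tested, and 2 of 12 (Vip and Cck) had both below, as did 9.57%. These arrays were picked on other genes and not on the peptides, and the counts are given without a test. In the other deposited table Penk (7.97 and 8.44) and Tac1 (8.85 and 8.49) were highest in No stress replicates 5 and 6, the arrays with high Zic1 there. Vip and Cck did not set that pair apart, since Vip in IMO replicate 2 (10.18) and Cck in IMO replicate 3 (12.02) lay between its values of 10.10 and 10.39 for Vip and 11.74 and 12.17 for Cck. IMO replicate 1 had the highest Vip in that table, at 10.87.

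Pdyn, named above with Penk and Tac1 as abundant in striatum, did not rise in either punch in the value table and differed within the pair. It was at 0.466 of the mean of the other 6 arrays in IMO replicate 1 and at 0.898 in No stress replicate 6, and its dimmer probe at 0.661 and 0.934. Cort was at 0.768 and 0.996 at its brighter and 0.659 and 0.983 at its dimmer probe. Both Pdyn probes and the dimmer Cort probe were lowest of all 8 arrays in IMO replicate 1, while the brighter Cort probe, at 8.89 there, lay within the range of the other 6 arrays. Among precursors outside the 10 genes, named after their values were seen, Grp, for gastrin-releasing peptide, read 6.18 in IMO replicate 1 and 9.34 in No stress replicate 6, against 10.16 to 10.62 elsewhere. Adcyap1, for the peptide PACAP, read 6.14 and 8.01 in those arrays, against 9.09 to 9.70. Nts, the neurotensin precursor, was at 8.40 in IMO replicate 1 and 6.81 in No stress replicate 6, and at 5.95 to 6.38 in the other arrays, near background. Of the 9 tested precursors in that list 2 had both punches above the other 6 arrays, against 7.57% of all probes tested. Another 2 had both below, against 9.57%, and the rest overlapped. The median difference of the pair from the other 6 arrays over that list was -0.008 log2 units.

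**Figure D4:**
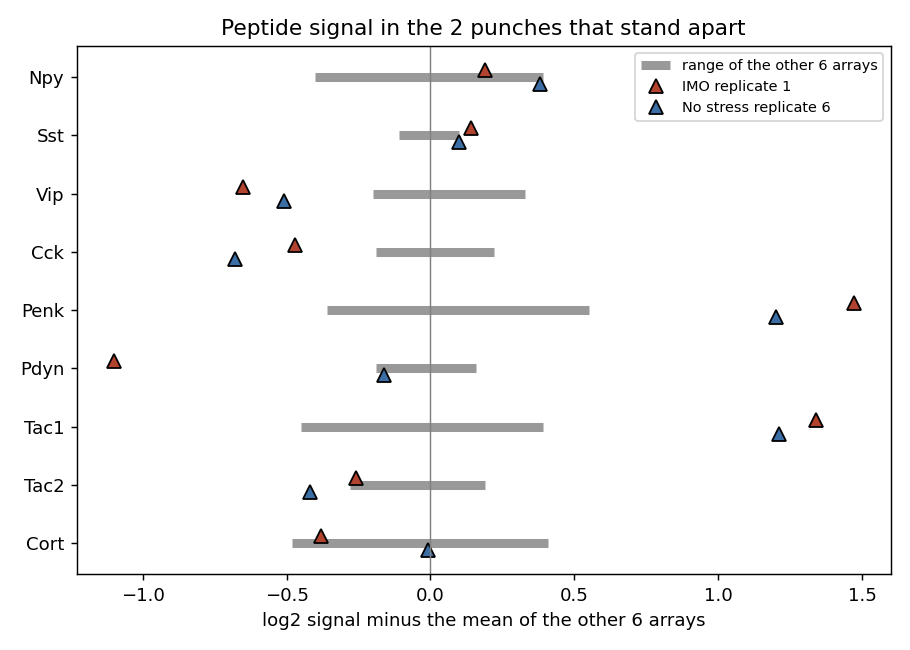
Log2 signal of IMO replicate 1 (red triangles) and No stress replicate 6 (blue triangles) relative to the mean of the other 6 arrays (horizontal axis), with the range of those 6 arrays as a grey bar, for the brightest tested probe of each precursor. Penk and Tac1 lie 1.20 to 1.47 above 0 in both punches, Vip and Cck 0.47 to 0.68 below it, and Pdyn is low, at -1.10, in IMO replicate 1 alone.

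The pair of punches was set apart on genes of regions below the cortex such as Zic1, so the counts of such markers restate that choice and are given as a description. Of 17 tested striatal and septal markers 10 had both punches above the other 6 arrays and 1 below, with a median excess of 0.71 log2 units. Their centred mean ran from -0.30 to 0.516 in IMO and from -0.402 to 0.614 in No stress arrays, with the highest value of each group in the same pair of punches. Ppp1r1b, which encodes the striatal phosphoprotein DARPP-32, read 10.34 and 10.52 there and 8.86 to 9.66 elsewhere. Drd1, the dopamine receptor of direct-pathway neurons, did not follow, at 7.97 and 8.72 against 8.20 to 9.04. Of the 23 listed markers on the array 6 did not pass the detection filter, among them Gpr6, Isl1 and Six3. Of 12 tested myelin markers 11 had both punches above the others. Over all probes tested 7.57% had both above and 9.57% both below. The part of tissue composition in the peptide values was not tested.

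General GABAergic markers were high in the same pair of punches. Of 21 tested interneuron markers 8 had both punches above the other 6 arrays, against 7.57% of all probes tested. Another 3 (Reln, Maf and Lamp5) had both below, against 9.57%. Gad2, a GABA-synthesizing enzyme, read 12.38 and 12.03 there and 10.75 to 11.40 elsewhere, and Slc32a1, the vesicular GABA transporter, 12.45 and 12.30 against 11.26 to 11.60. Both are also made by striatal and septal neurons. Sst and Npy stayed within 0.38 log2 units of the other arrays' mean in punches where Gad2 was on average 1.06 higher, while the mean Vip difference of the pair from those arrays was -0.58. Between the stress groups the list had a median difference of 0.02, and 0 genes above and 1 gene below 0 reached an unadjusted p under 0.05 (backgrounds of 5.19% and 5.44%). That gene was Pvalb, the marker of fast-spiking cells, at -0.48 (adjusted p 0.426).

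Receptors for these peptides gave no call either. Of 19 receptor genes 7 were tested, 4 with higher and 3 with lower mean signal in IMO arrays, and 0 had an adjusted p under 0.05. Sstr2, a somatostatin and cortistatin receptor, had the smallest p. It read 9.33, 9.52, 9.62 and 9.44 in IMO arrays, against 9.88, 9.86, 9.95 and 9.51 in No stress arrays, so that the groups overlapped only through No stress replicate 8. The difference was -0.32 with a standard error of 0.113 and a limma adjusted p of 0.376. Of the neuropeptide Y receptors, Npy1r had a difference of 0.32, Npy5r of 0.26 and Npy2r of 0.16, with adjusted p from 0.527 to 0.835. Cckbr, the main cholecystokinin receptor of cortex, was at 0.09 between the groups, and the 2 punches that stand apart differed from the other arrays by -0.94 on average, on the same side as Cck. Oprl1, the nociceptin receptor, was at -0.14 and Tacr1, the substance P receptor, at -0.04, and Tacr1 was near background at 6.17 to 6.66. The opioid receptor genes Oprm1 and Oprk1 did not pass the detection filter.

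Among 9 tested precursors of other peptides 0 had an unadjusted limma p under 0.05, against 10.6% of all probes tested. The smallest p belonged to Nmb, for neuromedin B, at -0.15, and Edn1, for endothelin, at 0.26, both overlapping between groups. Of 8 tested upper-layer markers 2 had an unadjusted p under 0.05, Inhba at 1.08 and Rorb at 0.36 (adjusted p 0.239 and 0.415). Of 17 tested striatal and septal markers 1 did, Meis2 at 0.24 (adjusted p 0.416). Among all probes tested 5.19% were higher in IMO arrays at that unadjusted p. Deep-layer, excitatory and myelin lists had 0 genes at that level, of 9, 7 and 12 tested. The smallest p in each belonged to Crym (0.17) and Tle4 (-0.11), to Slc17a7 (0.26) and Nrgn (-0.12), and to Opalin (-0.47) and Mal (-0.47).

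Across the 8 arrays the genes with the pattern most like each widely ranging peptide were sought among 9892 other genes detected on all arrays, as a description. For Penk they were Rasd2, which encodes the striatal G protein Rhes (Pearson r 0.967), and the adhesion molecule gene Mcam (0.966). For Tac1 they were the Rac exchange factor gene Tiam1 (0.972) and Caprin1, which encodes an RNA-binding protein (0.967), and for Pdyn they were Chia1, for a chitinase (0.982), and Pfkfb2, for a regulator of glycolysis (0.981). Over the 6 arrays without the 2 punches these r values were 0.806 to 0.890. The arrays share the same 2 outlying punches, and so large a search finds high values readily.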

How the data were processed

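Total RNA was purified on RNeasy columns and turned into biotinylated cRNA with an Ambion MessageAmp kit, per the labels' protocols. The authors deposited 2 tables of probe intensity on a linear scale and, in the second table, a detection p-value per probe for every array. The steps between scanning and these intensities are not given in the sources used here. The second table was deposited under the label of non-normalized data. The columns of each table nevertheless have nearly equal distributions, the form that quantile normalization leaves, so they were not normalized again. The value table was used with the detection p-values, whose order it follows. Groups came from the sample titles. Intensities were taken to log2 with no pseudocount, and probes detected (p under 0.05) on 4 or more arrays were tested with limma 3.58.1 (lmFit, eBayes) in R 4.3.3, adjusted by Benjamini-Hochberg over 20531 probes. The number of arrays limits the precision (median standard error 0.108). Gene names came from the platform annotation and were updated through Entrez gene IDs. Listed genes were represented by their brightest tested probe. The receptor genes, the 2 genes of smallest p per list and genes with p under 0.05 were named, and for a peptide ranging over more than 1 log2 unit its 2 most alike genes. Genes named to describe the 2 punches, other than Zic1, Prkcd, Cux2 and Ppp1r1b, were chosen after their values were seen. The members and lists were chosen with earlier results of these data known. The fit was tested on simulated data.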

Additional observations from a re-analysis of the deposited data

Results flagged for a closer look

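Within a group of 4 arrays, 3 values stood far from their neighbours by Dixon's criterion (the gap to the nearest value against the whole range), out of 24 groups of member values looked at, and chance flags about 1 in 20. All 3 came from IMO replicate 1 in the value table; in the second deposited table that array had the highest signal of all 8 for Pdyn (10.71) and a middle one for the dimmer Cort probe (9.07). They were the highest IMO value of Penk at 8.31 (gap 0.892 of the range), the lowest of the brighter Pdyn probe at 9.49 (0.851) and the lowest of the dimmer Cort probe at 8.53 (0.834). The same array had high Zic1, and its part in these values was not tested.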

How the results depend on the processing

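Across 17 other settings 0 member probes had an adjusted p under 0.05, and the smallest was 0.346, for Penk without IMO replicate 1. No paired analysis was possible because the groups share no replicate numbers. Repeated quantile normalization, cyclic loess, normexp background, other probe filters and trended robust variance turned no member's sign. The second deposited table turned Npy to 0.12, Vip to 0.09, the Pdyn probes to 0.28 and 0.31, Tac1 to -0.45 and the dimmer Tac2 probe to 0.03. Array weights turned Cck to -0.01 and the dimmer Tac2 probe to 0.01. Without IMO replicate 1 and No stress replicate 6 together Npy was at 0.02, Cck at -0.06 and the dimmer Tac2 probe at 0.06. The cause was not tested. With single arrays left out, Npy ran from -0.19 to 0.07, Sst from -0.02 to 0.06, Cck from -0.17 to 0.13, Tac1 from -0.13 to 0.51, the Tac2 probes from -0.04 to 0.16 and from -0.12 to 0.08, and the Cort probes from -0.04 to 0.26 and from -0.07 to 0.21. Penk ran from -0.72 to -0.05, Pdyn from -0.39 to -0.01 and from -0.25 to -0.03, and Vip from -0.36 to -0.07, with no change of sign. The number of listed genes outside the members with unadjusted limma p under 0.05, 5 over all arrays, was 9 with array weights and 6 in the second deposited table. It was 13 without both punches and 2 to 10 with single arrays left out. These lists held 7 to 21 tested genes each, and the counts are given as a description. Of all probes tested, 10.6% were under that p over all arrays and 11.5% without both punches. That share is not given for the other settings. Without both punches 1 of all probes passed the adjusted p. Dim signal limits Pnoc, Penk and Tac2.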
